A study of Mus musculus with 58 samples.

Results

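The genes described here mark the GABA interneurons of the mouse striatum. They are 10 genes, taken by name from a fixed list, out of 54532 genes in the RNA-seq tables and 18411 genes in the ribosome footprint and lysate RNA tables. No cutoff on a measured value was used, but the list was made with earlier results of these data known. All 10 were found in every count table. RNA-seq was made from the striatum of 32 mice, 4 in each sex of 3g del/+ mice, their wild type (wt) littermates, 16p11.2 del/+ mice and theirs. The 3g del/+ mice carry 1 mutant copy each of Taok2, Sez6l2 and Mvp, made by CRISPR/Cas9 to place a premature stop codon in each gene. The 16p11.2 del/+ mice lack 1 copy of the whole syntenic region, which holds the same 3 genes, and came from The Jackson Lab. All mice were adults, and the labels give strain B6129S for every sample. Both alleles are germline alleles carried by all cells, not by interneurons alone. Ribosome footprints and RNA were also sequenced from striatal lysates of other male mice, with 3 del/+ and 3 wt animals of the 3g line and 3 del/+ and 4 wt animals of the 16p11.2 line. Each of those animals gave 1 footprint and 1 lysate RNA library, and they are named here only where 1 of them decides a value.

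Most neurons of the striatum are GABAergic projection neurons, and a small minority are interneurons whose axons stay inside the striatum and inhibit or tune the projection neurons. Fast-spiking interneurons make the calcium buffer parvalbumin (Pvalb). A second class makes the peptides somatostatin (Sst) and neuropeptide Y (Npy) together with neuronal nitric oxide synthase (Nos1), and a part of it makes the membrane protein chondrolectin (Chodl). A further class makes the calcium buffer calretinin (Calb2). The peptides cholecystokinin (Cck) and vasoactive intestinal peptide (Vip) mark scarcer interneurons, and Cck is also made by many excitatory neurons of the cortex. The homeodomain transcription factors Nkx2-1 and Lhx6 specify interneurons born in the medial ganglionic eminence, the embryonic source of the Pvalb and Sst classes, and Nkx2-1 acts before Lhx6 in that lineage.

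The peptide genes are short and lie on different chromosomes. On GRCm38.p6, RefSeq places Sst (ENSMUSG00000004366) at chr16:23889573-23891342, Npy (ENSMUSG00000029819) at chr6:49822710-49829507, Cck (ENSMUSG00000032532) at chr9:121489824-121495694 and Vip (ENSMUSG00000019772) at chr10:5639193-5647617. Pvalb (ENSMUSG00000005716) lies at chr15:78191112-78206400, Nos1 (ENSMUSG00000029361) at chr5:117866839-117958840, Chodl (ENSMUSG00000022860) at chr16:78930841-78951736 and Calb2 (ENSMUSG00000003657) at chr8:110142526-110168212. Lhx6 (ENSMUSG00000026890) lies at chr2:36081950-36105992 and Nkx2-1 (ENSMUSG00000001496) at chr12:56531935-56536908. The 250 bases before the start site of the 4 peptide genes, as the RefSeq promoter table places it, are shown because Sst and Npy, and Cck and Vip, are the pairs whose levels moved together most closely across libraries of the 3g line. Capitals mark each match to TGACG or its reverse complement CGTCA, the core repeated in the cAMP response element TGACGTCA, the site by which CREB was first described at the Sst gene. The sequences are from RefSeq (GRCm38.p6), 5′ to 3′ on the strand of the gene, at chr16:23890845-23891094 (minus strand) for Sst, chr6:49822460-49822709 (plus strand) for Npy, chr9:121495695-121495944 (minus strand) for Cck and chr10:5638968-5639217 (plus strand) for Vip. For Sst and Vip that start site lies inside the gene span given above, so the sequence shown overlaps the span.
Sst: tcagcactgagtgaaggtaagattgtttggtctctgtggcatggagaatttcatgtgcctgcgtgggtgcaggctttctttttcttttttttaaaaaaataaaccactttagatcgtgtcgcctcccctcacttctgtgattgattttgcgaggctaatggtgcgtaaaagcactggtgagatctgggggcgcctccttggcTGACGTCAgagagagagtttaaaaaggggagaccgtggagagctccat
Npy: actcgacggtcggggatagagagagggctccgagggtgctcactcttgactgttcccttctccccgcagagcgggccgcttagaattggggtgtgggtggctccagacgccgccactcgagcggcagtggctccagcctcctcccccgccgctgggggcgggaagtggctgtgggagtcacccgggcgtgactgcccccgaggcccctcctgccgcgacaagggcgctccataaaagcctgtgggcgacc
Cck: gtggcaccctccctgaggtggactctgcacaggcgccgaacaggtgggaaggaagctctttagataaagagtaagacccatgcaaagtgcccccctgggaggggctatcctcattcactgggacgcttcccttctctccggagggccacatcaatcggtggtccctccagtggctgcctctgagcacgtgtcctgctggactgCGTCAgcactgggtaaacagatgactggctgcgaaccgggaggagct
Vip: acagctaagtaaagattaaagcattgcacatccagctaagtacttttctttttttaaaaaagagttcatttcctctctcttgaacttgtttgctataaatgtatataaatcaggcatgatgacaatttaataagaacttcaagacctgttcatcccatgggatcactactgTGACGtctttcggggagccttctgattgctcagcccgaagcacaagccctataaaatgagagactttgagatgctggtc
The full 8-base element was found in the Sst promoter, where 2 5-base cores overlap, and in no other of 12 promoters of the 9 genes with an entry. It is present in 1.55% of 32851 mouse promoters of the same length, searched on both strands. The 5-base core was found in the promoters of Sst, Cck, Vip and Nos1, against 17.8% of all promoters, and it lies 47 bases before the start in Cck and 79 bases before it in Vip. Of the 12 promoters, the Vip promoter alone held TATAAA, present in 12.4% of promoters, and none held the homeodomain core TAATTA, present in 4.84%.

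The labels were checked against the counts before any comparison. Sez6l2 was at 182 to 225 CPM in the 8 3g del/+ libraries and 273 to 339 CPM in the 8 3g wt libraries, and at 125 to 162 CPM in the 16p11.2 del/+ and 288 to 400 CPM in the 16p11.2 wt libraries, where CPM is the TMM-normalized read count on a common library size. Taok2 was at 82.8 to 95.4 CPM in the 16p11.2 del/+ and 153 to 195 CPM in the 16p11.2 wt libraries. In the 3g line Taok2 overlapped between the genotypes, at 151 to 198 CPM in del/+ and 177 to 181 CPM in wt libraries. Mvp was at 4.98 to 7.46 CPM in the 3g del/+ and 7.26 to 9.02 CPM in the 3g wt libraries, and overlapped between the highest del/+ and the lowest wt male. The projection neuron markers Drd1, Drd2, Adora2a and Ppp1r1b were above 0 in all 32 RNA-seq libraries, and Drd1 was at 198 CPM or more. Total counts were 11711099 to 65529807 per RNA-seq library, 15102576 to 19122488 per lysate RNA library and 342052 to 678130 per footprint library. The labels conflict with the counts or with the other libraries in 3 places. Distance was the root mean square difference in log2 CPM from the mean of a line's other libraries, over 15096 genes. By it, 3g wt male 17 lay nearer the mean profile of the 16p11.2 line (0.167) than that of its own line (0.4657). Likewise, 16p11.2 del/+ male 4 lay nearer the 3g line (0.278) than its own (0.475). Its Taok2 was within the 82.8 to 95.4 CPM of the 16p11.2 del/+ libraries, and no 3g library was below 150.6 CPM of Taok2. Ddx3y, a gene of the Y chromosome, reached 38.6 CPM and Xist 0.463 CPM in 16p11.2 del/+ female 1 as labelled, where the other 15 female libraries had 0 CPM of Ddx3y and at least 324 CPM of Xist.

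Cck and Vip were the members whose RNA-seq level varied most, and both were far lower in the 3g line in that assay. Cck ran from 4.57 to 120 CPM across the 32 libraries, a 26.2-fold range, and Vip from 1.15 to 22.3 CPM, a 19.4-fold range. Lhx6, at the other end, ran from 20.9 to 33.6 CPM, a 1.61-fold range. Male 17, at 81.4 CPM of Cck, lay within the 16p11.2 wt range, so the separation of the lines given next depends on leaving it out. Without male 17, the 7 3g wt libraries had 15.04 ± 11.4 CPM of Cck and the 8 16p11.2 wt libraries 88.9 ± 18.9 CPM (SD), a ratio of 5.91 with no overlap, since the highest 3g library was at 37.6 and the lowest 16p11.2 library at 68.6 CPM. Vip gave 2.41 ± 1.27 and 13.4 ± 4.28 CPM, a ratio of 5.57 with no overlap. The ratio was 2.89 for Pvalb (13.6 ± 2.66 and 39.2 ± 9.81 CPM), 1.597 for Npy (39.9 ± 4.14 and 63.8 ± 7.16 CPM) and 1.55 for Sst (113 ± 11.05 and 176 ± 20.04 CPM), and none of these overlapped between the lines either. With male 17 kept, all 5 genes overlapped between the lines, and the ratios were 3.81 for Cck, 3.83 for Vip, 2.37 for Pvalb, 1.51 for Npy and 1.44 for Sst. The other 5 genes were lower in the 16p11.2 wt libraries on average, with overlap between the lines. Calb2 stood at a ratio of 0.490, Nkx2-1 at 0.631, Nos1 at 0.763, Lhx6 at 0.891 and Chodl at 0.927. Lysate RNA of other wt males did not repeat the RNA-seq ratios for Cck, Sst and Npy. The 3g and 16p11.2 means were 27.6 and 27.0 CPM for Cck, 48.2 and 44.7 CPM for Sst and 13.0 and 12.8 CPM for Npy. Pvalb (12.9 and 16.6 CPM) and Vip (2.12 and 3.51 CPM) were lower in the 3g lysates. Footprint means for Cck were 53.6 and 37.7 CPM, for Sst 214 and 139 CPM and for Pvalb 16.1 and 21.5 CPM. The lines come from separate count tables, and line, batch and dissection cannot be told apart, so no test was made between them. In bulk tissue, fewer cells of a class and less RNA per cell cannot be told apart. Levels are not compared between genes here, because the files give no transcript lengths.

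**Figure D1:**
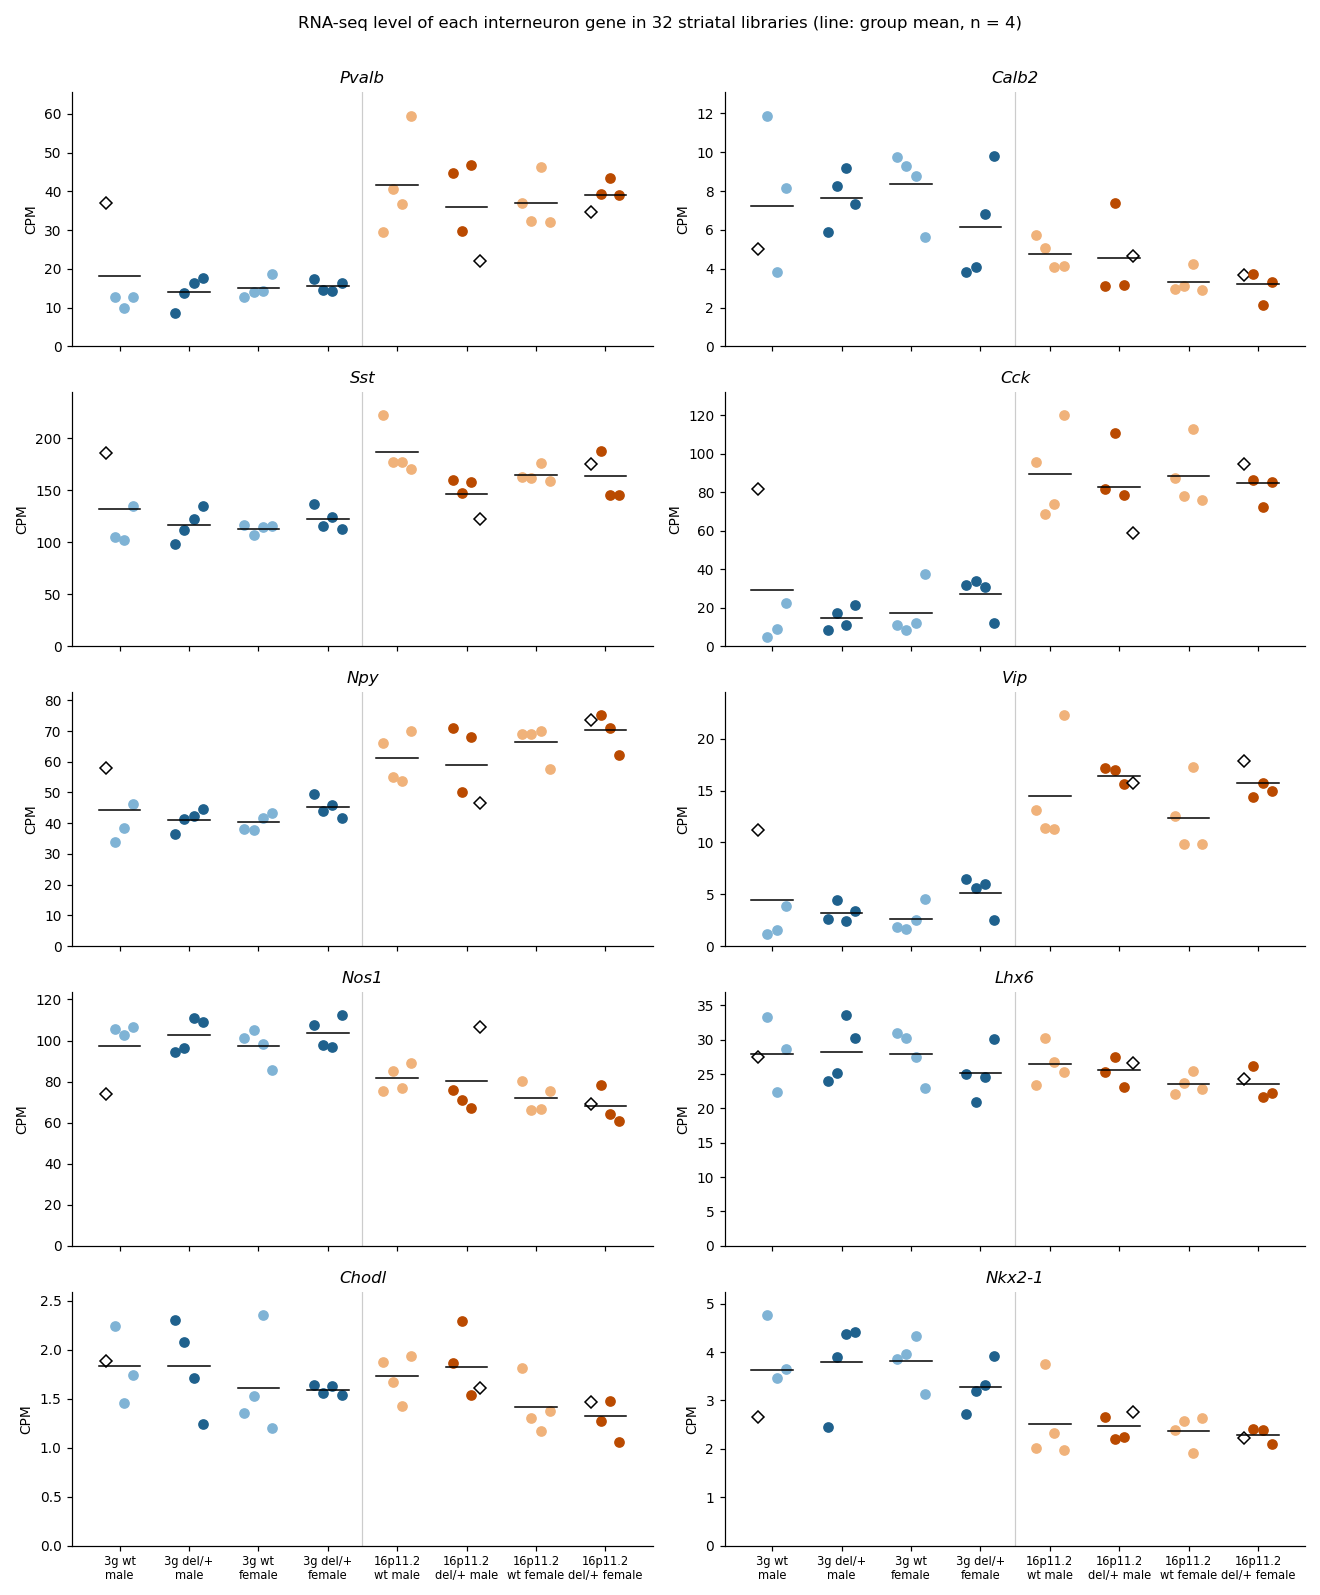
RNA-seq level of each of the 10 genes in CPM (vertical axes, linear from 0) in the 8 groups of 4 libraries, with a bar at each group mean. Open diamonds mark 3g wt male 17, 16p11.2 del/+ male 4 and the library labelled 16p11.2 del/+ female 1. Cck and Vip were lower in the 3g line, and 3g wt male 17, with 81.4 CPM of Cck, lay among the 16p11.2 libraries.

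The level of Cck moved with genes of cortical excitatory neurons in both lines. The list used holds 8 such genes, among them Slc17a7 and Tbr1, and all 8 were above 0 in all 32 libraries. Their summed level was 48.3 to 946 CPM (median 223) in the 3g line and 780 to 1364 CPM (median 889) in the 16p11.2 line. Correlations were computed on log2 CPM after the mean of each group of 4 was removed, with permutation of libraries within a line, and adjusted over 135 relations in each set of libraries. Cck followed the cortical sum with r = 0.993 and rho = 0.991 over the 16 3g libraries, with a permutation p of 1e-05 for each, the smallest that 100000 permutations can give, and adjusted p of 0.000193 for r and 0.00027 for rho. Without the 2 libraries farthest from the median, r was 0.988. Here and below, group means were not taken again after those 2 libraries were left out, so their pull on their group's other values stayed in r. In the 16p11.2 line r was 0.888 and rho 0.841 (permutation p = 1e-05 and 9e-05, adjusted 0.00135 and 0.0121), and r was 0.823 without the 2 farthest libraries. Vip followed the same sum with r = 0.949 and rho = 0.894 in the 3g line (permutation p = 1e-05 for each, adjusted 0.000193 and 0.00027), where r was 0.902 without the 2 farthest libraries. In the 16p11.2 line the Vip relation was looser, with r = 0.762 (permutation p = 0.00038, adjusted 0.0169), rho = 0.626 (permutation p = 0.0114, adjusted 0.171) and r = 0.562 without the 2 farthest libraries. Lhx6 showed no such relation past the threshold, with r = -0.416 in the 3g line (permutation p = 0.108, adjusted 0.198) and 0.0079 in the 16p11.2 line (permutation p = 0.976, adjusted 0.987).

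**Figure D2:**
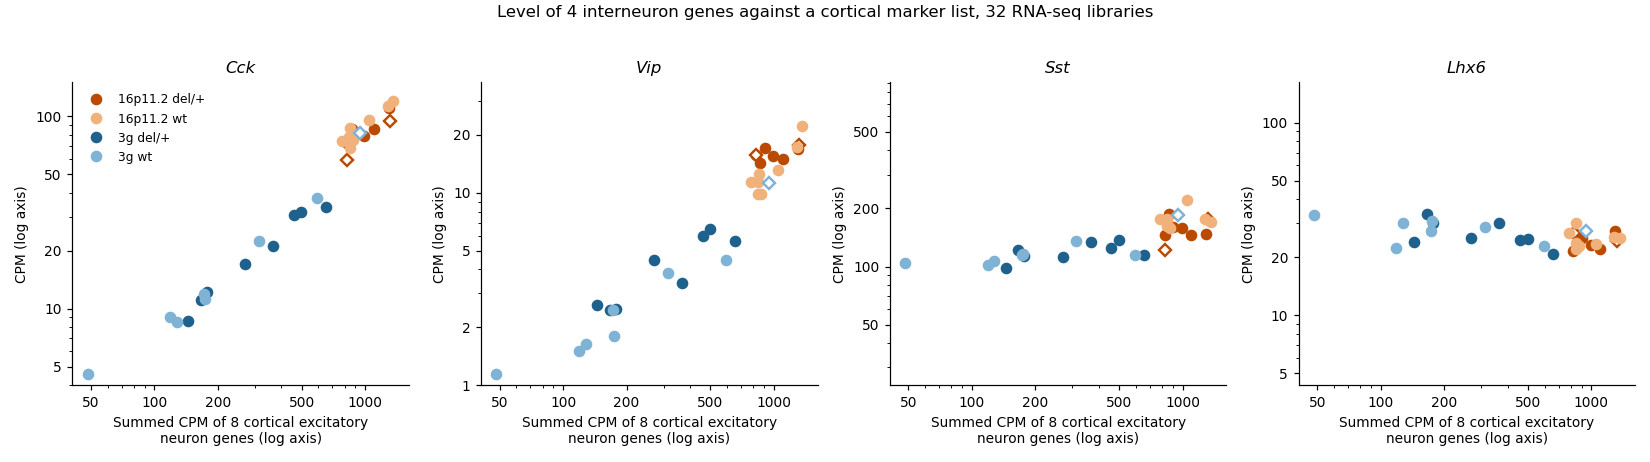
Level of Cck, Vip, Sst and Lhx6 (vertical axes, CPM, log scale) against the summed level of 8 cortical excitatory neuron genes (horizontal axes, CPM, log scale) in 32 libraries. Open diamonds mark the same 3 libraries as in the plot of levels by group. Cck ran from 4.57 CPM where the sum was 48.3 CPM to 120 CPM where it was 1364 CPM, and Lhx6 stayed between 20.9 and 33.6 CPM.

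Sst and Npy, the 2 peptides of 1 interneuron class, varied together in the 3g line. Their r was 0.942 and their rho 0.909 over 16 libraries (permutation p = 1e-05 for each, adjusted 0.000193 and 0.00027), and r was 0.905 without the 2 farthest libraries. In the 16p11.2 line r was 0.616 (permutation p = 0.0118, adjusted 0.127) and rho 0.644 (permutation p = 0.00824, adjusted 0.171), and r was 0.494 without the 2 farthest libraries. Over both lines without the 3 libraries named above, r was 0.636 and rho 0.638 (permutation p = 0.00021 and 0.00026, adjusted 0.00315 and 0.00439). In the 3g line Npy also followed the cortical sum, with r = 0.896 and rho = 0.844. Calb2 and Lhx6 varied together in the 3g line, with r = 0.816 and rho = 0.785 (permutation p = 0.00014 and 0.00053, adjusted 0.00118 and 0.00429), and with r = 0.540 (permutation p = 0.0302, adjusted 0.186) in the 16p11.2 line. Of the 45 pairs of members, r passed an adjusted p under 0.05 in 16 pairs in the 3g line and in 2 pairs in the 16p11.2 line, and in 8 pairs over both lines without the 3 libraries. The difference between the lines was not tested, and a shared library depth or tissue mix moves with all members of a pair.

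The genes outside the list whose level moved most like each member were found over 15086 genes and 32 libraries by Spearman rho of the same deviations. They were Rtn4r and Olfm1 for Cck (rho = 0.969 and 0.968), Tbr1 and Dkkl1 for Vip (0.912 and 0.907), and Pag1 and Gad1 for Nos1 (0.912 and 0.845). Gad1 makes GABA, and Tbr1 is 1 of the 8 cortical genes used above. For Sst they were Bmyc and Lrrc14 (0.887 and 0.883), for Npy Fndc10 and Rab11fip5 (0.838 and 0.836), and for Pvalb Uvrag and Ermp1 (0.861 and 0.837). Lhx6 was most like Elfn1 and C1ql2 (0.824 and 0.780), Nkx2-1 like Kirrel3 and Lhx8 (0.792 and 0.787), Calb2 like Tmem255a and Stac (0.802 and 0.799) and Chodl like Tmem185b and Mest (0.656 and 0.656). These values describe 32 libraries that share their line and depth, and carry no test.

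Del/+ and wt mice were compared within each sex. In 3g males, none of the 10 genes was called by edgeR's quasi-likelihood test at a Benjamini-Hochberg adjusted p under 0.05, against 0% of 19081 genes tested. None had an unadjusted p under 0.05 (1.44% of all genes did), and DESeq2 also called none of the 10. None of the 10 had groups without overlap, as 1.94% of all genes did. Cck was at 8.59, 17.1, 11.1 and 21.2 CPM in del/+ males against 81.4, 4.57, 9.06 and 22.4 CPM in their wt littermates. The high wt value is male 17, and without it the wt range lay around the del/+ values. The log2 fold change of Cck was -0.95 (95% interval -2.57 to 0.66, adjusted p = 0.974), and it was 0.33 without male 17. The same library turned the direction of 5 other genes named here. Without it Pvalb went from -0.31 to 0.31, Vip from -0.39 to 0.62, Sst from -0.15 to 0.051, Npy from -0.073 to 0.077 and Nos1 from 0.10 to -0.017, all at an adjusted p of 1.00 without it. The cortical sum of male 17 was 946 CPM, against 48.3 to 314 CPM in the other 3 wt males, and with that sum as a covariate, chosen after seeing the data, Cck was at -0.37, Pvalb at -0.23 and Vip at 0.000827.

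In 3g females, again none of the 10 genes was called (adjusted p at least 0.338), against 0.00526% of 19024 genes. At an unadjusted p under 0.05, Npy and Vip passed, where 11% of all genes did, and no member had groups without overlap (5.08% of all genes). Vip was at 6.47, 5.64, 5.96 and 2.48 CPM in del/+ females and 1.81, 1.65, 2.47 and 4.49 CPM in wt females. Of these 8 libraries, 3 del/+ females lay above all wt females, and del/+ female 37 lay within the wt range. Its log2 fold change was 0.94 (95% interval 0.22 to 1.67, unadjusted p = 0.0151, adjusted p = 0.354), and the exact permutation test of CPM gave p = 0.0571. Cck was at 31.97, 33.6, 30.7 and 12.2 CPM in del/+ females and 11.23, 8.52, 11.9 and 37.6 CPM in wt females. The highest of the 8 was wt female 39, and 3 del/+ females lay above the other 3 wt females. Its log2 fold change was 0.63 (95% interval -0.31 to 1.57, adjusted p = 0.604). Without wt female 39 both passed the threshold, Cck at 1.35 (adjusted p = 0.0468) and Vip at 1.36 (adjusted p = 0.0472), in a fit that called 175 of 19125 genes against 1 with all 8 libraries. The cortical sum moved with them, at 499.1, 656, 459 and 177 CPM in del/+ and 174, 128, 173 and 594 CPM in wt females, and with that sum as a covariate Cck was at 0.0052 (adjusted p = 0.990) and Vip at 0.46 (adjusted p = 0.319).

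Npy was at 49.6, 43.9, 46.0 and 41.5 CPM in 3g del/+ females and 38.1, 37.9, 41.7 and 43.4 CPM in wt females, and the groups overlapped. Its log2 fold change was 0.18 (95% interval 0.049 to 0.31, unadjusted p = 0.011, adjusted p = 0.338). Sst changed by 0.12 and Nos1 by 0.10 (adjusted p = 0.459 and 0.606). With the cortical sum as a covariate, Npy was at 0.12, Sst at 0.094 and Nos1 at 0.21 (edgeR adjusted p = 0.506, 0.657 and 0.0952). The log2 fold change of Calb2 was -0.42 (95% interval -1.02 to 0.18, adjusted p = 0.584), with 3.84, 4.11, 6.81 and 9.79 CPM in del/+ and 9.77, 9.31, 8.79 and 5.63 CPM in wt females. It was -0.25 without del/+ female 28 and -0.77 without del/+ female 37, and -0.045 with the cortical covariate. That of Nkx2-1 was -0.20 (95% interval -0.49 to 0.095). The female minus male difference of the genotype effect was 1.604 for Cck and 1.35 for Vip, both at an adjusted p of 0.901 over all 16 libraries, and 0.30 and 0.33 without male 17. No member passed in that test of the difference, nor did any of 19830 genes (0%), and none had an unadjusted p under 0.05 (2.69% of all genes). With both sexes together no member was called, against 0.00504% of 19830 genes, and none passed unadjusted, against 5.71%. The values were then 0.097 for Nos1, 0.29 for Vip and -0.051 for Lhx6 (adjusted p = 0.871, 0.923 and 0.947). Without male 17, Vip was at 0.79 and Nos1 at 0.042. Over the fits that each left out 1 library, Lhx6 ran from -0.10 to -0.00083.

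In 16p11.2 males, Sst was the member with the clearest genotype difference, and it did not pass the threshold over all genes. Del/+ males had 160, 147, 158 and 122 CPM, against 222, 177, 177 and 171 CPM in the wt group. Every del/+ male was below every wt male, as in 3.82% of 17957 genes tested in 1 direction or the other, and Sst was the only one of the 10 without overlap. The log2 fold change was -0.34 (95% interval -0.60 to -0.082, unadjusted p = 0.0145, adjusted p = 0.742), and the exact permutation test gave p = 0.0286, the smallest that 4 against 4 allow. Without del/+ male 4 it was -0.27 and without wt male 1, the highest library, -0.25. Unadjusted, 1 of the 10 genes passed in males, where 5.82% of all genes did. None of the 10 genes was called, against 0.106% of all genes, and DESeq2 called none of them. For Vip the log2 fold change was 0.18 (adjusted p = 0.834), for Pvalb -0.21 (adjusted p = 0.855) and for Cck -0.11 (adjusted p = 0.904). Without del/+ male 4 these were 0.20, -0.034 and 0.014. Nos1 was at 76.1, 70.8, 67.3 and 106 CPM in del/+ males, and the value of 106 CPM is that library.

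In 16p11.2 females the Sst groups overlapped. It was at 176, 187, 146 and 146 CPM in del/+ and 162, 162, 176 and 159 CPM in wt females. The female minus male difference of the Sst effect was 0.33 (95% interval 0.020 to 0.65, unadjusted p = 0.0383, adjusted p = 0.835), and 0.30 without the library labelled female 1. None of the 10 genes was called in females (adjusted p = 0.998 for all but Lhx6, at 0.999), against 0.144% of 18067 genes, or in the test of the sex difference, against 0% of 18870 genes. Unadjusted, no member passed in females (4.47% of all genes) and 1, Sst, in the test of the difference (4.33%), and none had female groups without overlap (2.85%). Vip was at 17.8, 14.3, 15.7 and 14.996 CPM in del/+ and 12.6, 9.84, 17.3 and 9.84 CPM in wt females, with overlap through wt female 3. Its log2 fold change was 0.35 (95% interval -0.029 to 0.72), and 0.28 without the library labelled female 1. Pvalb had a value of 0.085, Npy of 0.088, Nos1 of -0.081 and Nkx2-1 of -0.058, and without that library these were 0.14, 0.065, -0.091 and -0.051. With both sexes together none was called, against 0.175% of 18870 genes, and only Sst passed unadjusted, against 6.53%. Sst was then at -0.17 (95% interval -0.33 to -0.018, unadjusted p = 0.031, adjusted p = 0.745), Vip at 0.27 (adjusted p = 0.771) and Nos1 at -0.047 (adjusted p = 0.928). For the 10 genes the median log2 fold change was -0.039 in the 16p11.2 and -0.033 in the 3g line, against 0.0036 and -0.0038 over all genes tested.

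4 members were lower in females than in males of the 16p11.2 line before adjustment. Calb2 was at 5.71, 5.08, 4.09 and 4.11 CPM in wt males and 2.94, 3.10, 4.24 and 2.89 CPM in wt females. Del/+ males had 3.11, 7.37, 3.15 and 4.65 CPM of it and del/+ females 3.68, 3.73, 2.11 and 3.29 CPM. The wt sexes overlapped through wt female 3 alone, and the del/+ sexes overlapped more widely. The log2 difference, female minus male over both genotypes, was -0.53 for Calb2 (95% interval -0.91 to -0.15, unadjusted p = 0.00953), -0.38 for Chodl (unadjusted p = 0.0141), -0.21 for Nos1 (unadjusted p = 0.0307) and -0.15 for Lhx6 (unadjusted p = 0.0315) in the edgeR fit. After adjustment the p-values were 0.629 to 0.653, and no member was called, against 0.0053% of 18870 genes. An unadjusted p under 0.05 was found for 4 of the 10 genes and for 7.58% of all genes. Npy and Vip differed by 0.18 and -0.15 (adjusted p = 0.663 and 0.785). Without the library labelled female 1, which carried a male pattern of Ddx3y and Xist, Calb2 was at -0.56, Chodl at -0.41, Nos1 at -0.22 and Lhx6 at -0.16. In the 3g line Chodl differed by -0.20, Lhx6 by -0.10 and Nkx2-1 by -0.10 (adjusted p = 0.953, 0.953 and 0.955), and no member was called, against 0.131% of 19830 genes, nor did any pass unadjusted (5.81%).

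The lysate RNA libraries gave the genotype comparison again in other male mice, and no member was called in either line. In the 3g line the background was 0.0209% of 14378 genes, and Pvalb and Nos1 did not overlap between the groups. Levels of Pvalb were 16.6, 15.8 and 15.4 CPM in del/+ and 13.5, 11.7 and 13.6 CPM in wt males, a log2 fold change of 0.30 (95% interval 0.038 to 0.56, unadjusted p = 0.0277, adjusted p = 0.940). Nos1 was at 25.95, 27.5 and 27.8 CPM in del/+ and 18.8, 25.4 and 24.7 CPM in wt males, a log2 fold change of 0.24 (adjusted p = 0.940). The exact permutation p was 0.1 for both, the smallest that 3 against 3 allow, and 9.63% of all genes had groups without overlap. Pvalb alone of the 10 passed unadjusted, as 4.92% of all genes did. Sst was at 0.21, Npy at 0.17 and Vip at 0.54 (adjusted p = 0.940, 0.950 and 0.949). For 16p11.2 lysates the background was 0.133% of 14330 genes, and every member had an adjusted p of at least 0.990. None passed unadjusted (4.41% of all genes) and none had groups without overlap (5.68%). Sst, the gene without overlap in RNA-seq males, was at 45.2, 45.8 and 38.2 CPM in del/+ and 51.3, 41.6, 40.2 and 45.6 CPM in wt males. The groups overlapped, and its log2 fold change was -0.045 (95% interval -0.30 to 0.21). The interval of the lysate value takes in part of the RNA-seq interval. Cck was at -0.42, Vip at -0.60, Npy at -0.19 and Chodl at 0.57, the last from 6 to 17 counts per library.

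**Figure D3:**
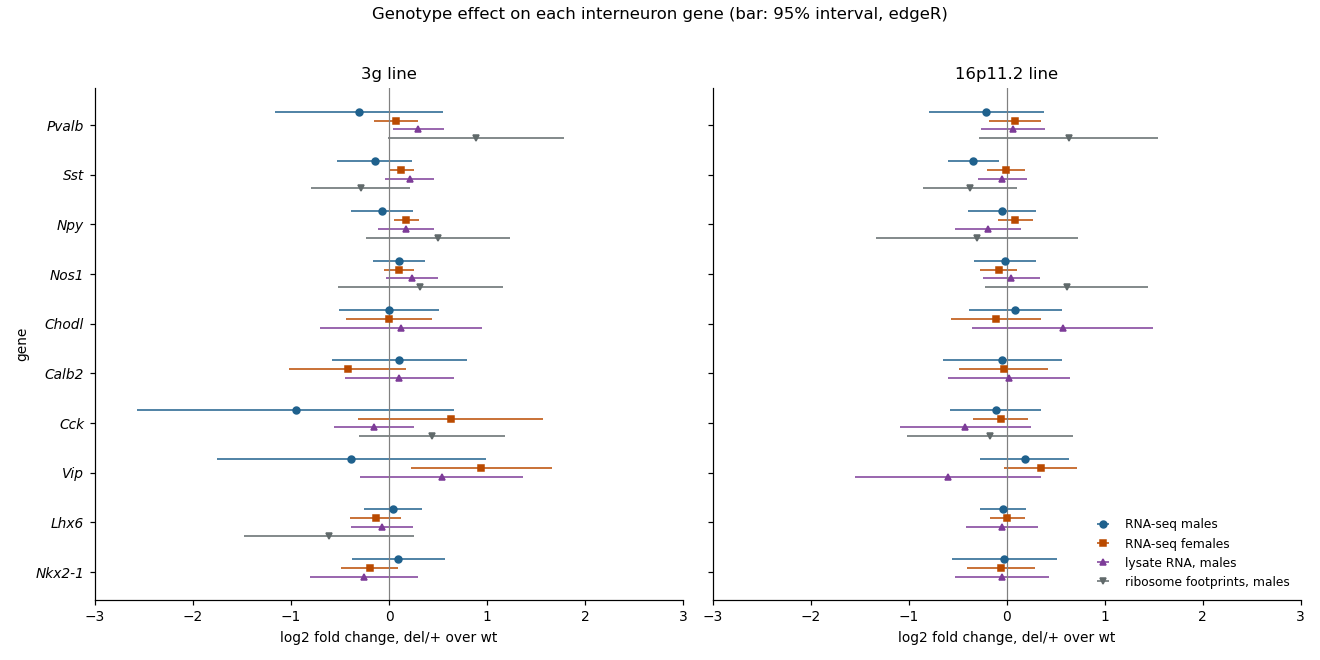
Log2 fold change of del/+ over wt (horizontal axes) for each gene in the 3g line (left) and the 16p11.2 line (right), with edgeR 95% intervals, for RNA-seq males, RNA-seq females, lysate RNA and ribosome footprints. Genes whose footprints did not pass the filter on low counts have no footprint point. No value passed an adjusted p under 0.05, and the widest RNA-seq interval is that of Cck in 3g males, from -2.57 to 0.66.

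Ribosome footprints, the fragments of mRNA that ribosomes protect from nuclease, were sparse for these genes. In the 3g line 6 of the 10 passed the filter on low counts (Pvalb, Sst, Npy, Nos1, Cck and Lhx6), and in the 16p11.2 line the same genes without Lhx6. Chodl, Calb2, Vip and Nkx2-1 had 0 to 16 footprints per library. No member was called, against 0.0132% of 7553 genes in the 3g and 0.117% of 5964 genes in the 16p11.2 line, and none passed unadjusted (7.97% and 6.15% of all genes). In 16p11.2 footprints none of the 5 tested had groups without overlap, against 6.79%. In 3g mice Pvalb was at 37.03, 38.0 and 19.2 CPM in del/+ and 11.1, 19.4 and 17.6 CPM in wt animals, from 5 to 30 footprints each. The groups overlapped through 1 animal of each, and the log2 fold change was 0.89 (95% interval -0.0081 to 1.78, adjusted p = 0.631). Lhx6 was at 16.7, 13.9 and 13.3 CPM in del/+ and 22.2, 21.6 and 19.8 CPM in wt animals, without overlap, as in 14.2% of all genes. Its log2 fold change was -0.61 (adjusted p = 0.727, exact permutation p = 0.1). Npy was at 0.50, Cck at 0.44, Nos1 at 0.32 and Sst at -0.29 (adjusted p = 0.741, 0.797, 0.885 and 0.811). In the 16p11.2 line Pvalb was at 0.63, Nos1 at 0.61, Sst at -0.37, Npy at -0.30 and Cck at -0.17 (adjusted p = 0.896 to 0.984).

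Footprints relative to lysate RNA of the same animals show how strongly a message is occupied by ribosomes. In 3g wt animals the ratio of footprint CPM to RNA CPM for Sst was 3.99, 3.37 and 2.41, against a median of 1.01 to 1.05 in the same animals. That median was taken over genes that passed the filter and were above 0 in both libraries of the animal. In 16p11.2 wt animals it was 1.999, 2.40, 2.04 and 2.65, against 0.957 to 0.992. Every wt animal was above its own median of those genes, from 48 to 118 footprints of Sst. The edgeR contrast of footprints over RNA gave a log2 value of 1.73 (95% interval 1.31 to 2.14, adjusted p = 1.55e-05) in the 3g line, higher than 91.8% of 13963 genes. For 16p11.2 mice it was 1.26 (95% interval 0.94 to 1.57, adjusted p = 1.29e-06), higher than 88.0% of 13682 genes. A call in this contrast is common, since 44.3% of all genes were called in the 3g and 46.6% in the 16p11.2 line, with 20.6% and 21.4% higher in footprints. Unadjusted shares were 51.3% and 52.8%, with 2 and 3 members. With the animal as a block, the Sst values were 1.70 and 1.25.

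Npy, the other peptide of that class, was at 1.59, 2.31 and 1.20 footprints per RNA in 3g wt animals, from 12, 19 and 10 footprints. Its log2 value was 0.78 (95% interval 0.20 to 1.37, adjusted p = 0.0313). With the animal as a block it was 0.77 and no longer passed (adjusted p = 0.0823), and without animal RNA-301 it was 0.47 (adjusted p = 0.304). For 16p11.2 mice Npy was at 1.35, 1.64, 1.03 and 1.78, a log2 value of 0.64 (adjusted p = 0.0661, and 0.0916 with the block). Nkx2-1 had 1.20 in that line (adjusted p = 0.0547) from 0, 6, 4 and 7 footprints. With RLE size factors in place of TMM both passed in the 16p11.2 line, Npy at 0.70 (adjusted p = 0.0459) and Nkx2-1 at 1.26 (adjusted p = 0.0444). Nos1 was at -0.64 in the 3g and -0.20 in the 16p11.2 line (adjusted p = 0.112 and 0.588), Cck at 0.53 and 0.060 (adjusted p = 0.223 and 0.911), and Lhx6 at 0.27 and -0.34 (adjusted p = 0.512 and 0.366). In the 3g line 2 of 10 members, Sst and Npy, were called, and in the 16p11.2 line 1 of the 9 tested, Sst. Where along a gene the authors counted reads is not given in the sources used here, so the ratio may compare different stretches of RNA and is read only between genes and animals of the same tables.

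**Figure D4:**
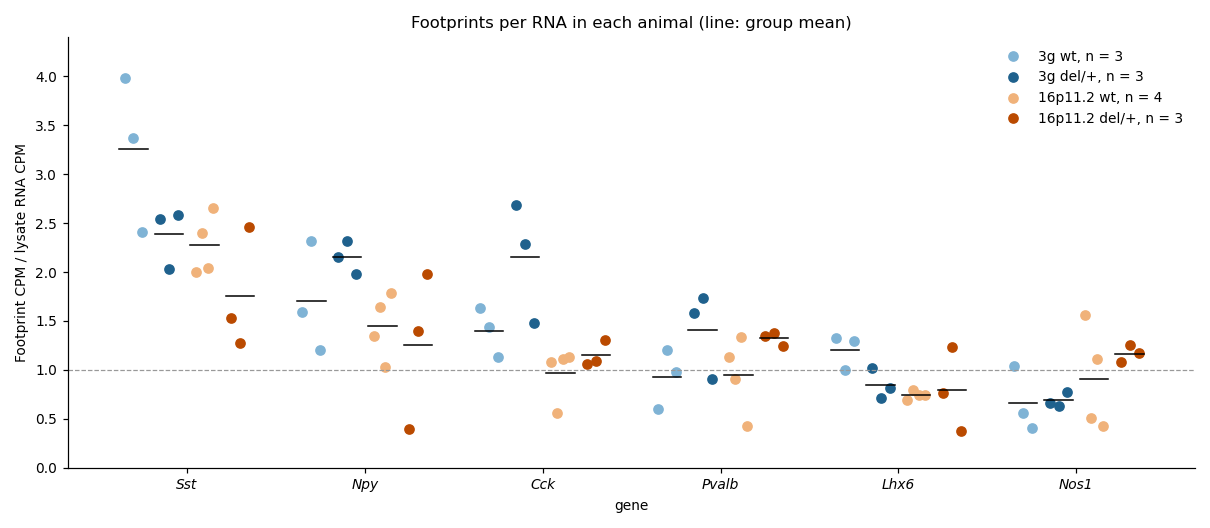
Footprint CPM divided by lysate RNA CPM (vertical axis, linear from 0) in each animal for the 6 genes with the most footprints, by line and genotype, with a bar at each group mean and a dashed line at 1. All 7 wt animals lie at 1.999 or higher for Sst, and the 3g wt animals reach 3.99.

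The genotype effect on footprints per RNA, here called translational efficiency and taken from the genotype by assay term of a joint fit, was called for no member, against 0% of 15137 genes in the 3g and 0.00664% of 15071 genes in the 16p11.2 line. None passed unadjusted in the 3g line, against 7.67%. That fit, which gave the values below, had no term for the animal, though the footprint and RNA libraries of an animal came from 1 lysate. With the animal as a block, no member was called in either line, and 10 of 15137 genes were called in the 3g line. Under the block Sst was at -0.44 in the 3g and -0.41 in the 16p11.2 line. Vip in the 16p11.2 line was then at 3.76 (edgeR adjusted p = 0.380). Sst was at 2.54, 2.03 and 2.59 in 3g del/+ animals, each below the wt animals at 3.99 and 3.37. The third wt animal, at 2.41, was below 2 of the 3 del/+ animals, so the groups overlapped. Sst was at 1.53, 1.27 and 2.46 in 16p11.2 del/+ animals, 2 of which were below all 4 wt animals. The interaction for Sst was -0.46 (95% interval -0.98 to 0.054, adjusted p = 0.701) in the 3g and -0.42 (95% interval -0.92 to 0.093, adjusted p = 0.855) in the 16p11.2 line. For Pvalb it was 0.63 in the 3g and 0.50 in the 16p11.2 line (adjusted p = 0.737 and 0.921). Cck was at 0.63, Npy at 0.37 and Lhx6 at -0.51 in the 3g line (adjusted p = 0.754, 0.847 and 0.818), and Nos1 at 0.50 in the 16p11.2 line (adjusted p = 0.907). Vip and Calb2 passed an unadjusted p under 0.05 in the 16p11.2 line, where 6.24% of all genes did. Vip had 6, 2 and 3 footprints in del/+ and 0, 0, 2 and 0 in wt animals, an interaction of 3.73 (95% interval 1.13 to 6.32, unadjusted p = 0.00651, adjusted p = 0.755). Calb2 had 1, 1 and 0 footprints in del/+ and 0, 16, 2 and 3 in wt animals, where the 16 are all from 1 animal. Its interaction was -2.72 (unadjusted p = 0.0449, adjusted p = 0.793). At these counts both estimates rest on single footprints and on the prior of the fit.

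The other interneuron genes were read from a list of 38, holding GABA synthesis and transport (Gad1, Gad2, Slc32a1), the Dlx factors, Sox6 and other markers of the same classes. None of those that passed the filter on low counts was called in any genotype comparison of RNA-seq, lysate RNA, footprints or translational efficiency in either line, and their median log2 fold change in RNA-seq lay between -0.014 and 0.046 within each sex. In 3g females 10 of the 38 had an unadjusted p under 0.05, against 11% of all genes. For footprints per RNA in wt animals, 10 of 36 tested were higher and 6 lower in the 3g line, against 20.6% and 23.7% of all genes. For the 16p11.2 line 12 were higher and 5 lower, against 21.4% and 25.2% of all genes. Reln, the secreted protein reelin, was at 1.48 and 1.30, and Slc32a1, the vesicular GABA transporter, at 1.37 and 1.45, next to 1.73 and 1.26 for Sst. Gad2, the synaptic form of the GABA-making enzyme, lay on the other side, at -1.81 and -1.65 (adjusted p = 8.52e-05 and 8.31e-08). Reln, Slc32a1 and Gad2 are examples picked outside the rule for naming genes. The highest value of the list was that of Npas1, at 7.36 in the 3g and 7.45 in the 16p11.2 line. It had only 1.09 to 2.41 CPM in lysate RNA, against 125 to 951 CPM in footprints. Whether its value reflects ribosome occupancy was not tested.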

How the data were processed

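Striatal RNA-seq of 32 mice and ribosome footprint and lysate RNA libraries of 13 male mice were analysed from gene count tables as the authors deposited them, raw read counts with no normalization. Per the submitters' processing notes the tools include HTSeq and Bowtie2 and the builds mm10 (RNA-seq) and mm39 (lysate RNA and footprints), and the counter of the latter tables is not given in the sources used here. The labels' protocol text conflicts with the study's methods on RNA selection and strain. The labels do not say that all samples of a group came from separate litters. The p-values thus measure only the spread between these animals, part of which may be technical or shared by litter.

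Genes were filtered with filterByExpr and tested with edgeR 4.0.16 (quasi-likelihood, TMM, limma 3.58.1, R 4.3.3) in each line and sex, with Benjamini-Hochberg adjustment over all genes tested and a threshold of 0.05. Both sexes together, the genotype by sex term and the sex effect used all 16 libraries of a line, and translational efficiency used both assays. Single values were also compared by exact two-sided permutation of CPM. Correlations used log2(CPM + 0.5). The script was tested on simulated data. Alternatives were DESeq2 1.42.0, RLE size factors, no filter, 1 fit per line, replicate and animal blocks, and each library left out, plus a cortical covariate and omission of the 3 libraries that stand apart, chosen after seeing the data. Footprint and RNA libraries of an animal came from 1 lysate and are paired by that. All 10 members are named, then other interneuron genes called in a genotype comparison, and the 2 genes most like each member in Spearman rho. The members and lists were chosen with earlier results of these data known.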

Additional observations from a re-analysis of the deposited data

Results flagged for a closer look

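In 10 of 100 groups of 4 libraries, 1 library lay far from the other 3 by Dixon's criterion. Chance gives about 1 in 20 for independent normal values. These groups share libraries across genes and some hold few counts, so that rate is no measure of chance here. In RNA-seq, 3g wt male 17 was the highest of its group for Pvalb (37.1 CPM) and the lowest for Nos1 (74.2 CPM). For Cck, 3g wt female 39 was far above its group (37.6 CPM) and 3g del/+ female 37 far below its own (12.2 CPM). In the 16p11.2 line, wt male 1 was high for Sst (222 CPM), wt male 4 high for Vip (22.3 CPM), wt female 3 high for Calb2 (4.24 CPM) and wt female 4 low for Npy (57.6 CPM). Among 16p11.2 wt footprint libraries, 1 animal was high for Calb2 (39.3 CPM, 16 footprints) and another high for Vip (4.35 CPM, 2 footprints, where the rest of its group had 0).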

How the results depend on the processing

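No member was called in a genotype, sex or translational efficiency comparison under any alternative run, except Cck and Vip in 3g females without wt female 39, where the number of members called was 0 to 2 over the fits that each left out 1 library. Without 1 library in turn, 3g male log2 fold changes ran from -0.50 to 0.31 for Pvalb, -0.25 to 0.051 for Sst, -0.18 to 0.077 for Npy, -0.017 to 0.15 for Nos1, -1.31 to 0.33 for Cck and -0.71 to 0.62 for Vip. With the cortical sum as a covariate, chosen after seeing the data, Vip there was 0.000827, and no member was called in any RNA-seq comparison. In the 16p11.2 line the same ranges were -0.37 to 0.022 for Pvalb and -0.28 to 0.065 for Cck in males, -0.096 to 0.032 for Sst in lysate RNA, and -0.82 to 0.15 for Npy and -0.44 to 0.16 for Cck in footprints. For footprints per RNA in 3g wt animals, 1 member (Sst) was called with no filter and 1 with the animal as a replicate block, and 1 to 2 without 1 animal in turn, where Nos1 was -1.04 (edgeR adjusted p = 0.0392) without animal RNA-300. In 16p11.2 wt animals 3 members were called by DESeq2 and 3 with RLE size factors (Sst, Npy and Nkx2-1), and 1 to 2 without 1 animal in turn. Nos1 there ran from -0.51 to 0.084, and Cck was -0.048 with no filter. Sst was called in every one of these fits. The number of correlated pairs was 2 in the 16p11.2 line alone and 8 without the 3 libraries. The causes of these changes were not tested beyond that covariate. In the 16p11.2 RNA-seq, 6 of 24 same-number pairs correlated above 0.1 (-0.411 to 0.398). No pairs of different numbers were set beside them, so whether the numbers pair the mice cannot be told from this. The replicate block left 0 members called, with Sst in males at -0.34 under the block. Over all genes, 3g females gave 117 calls by DESeq2, 158 with no filter and 175 without wt female 39, against 1, and 16p11.2 males 32 by DESeq2, against 19. Fold changes of members not printed changed sign in 20 of 338 alternatives and 204 of 860 fits without 1 library. Footprint depth leaves Chodl, Calb2, Vip and Nkx2-1 with too few counts to compare.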

Other observations

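Ndnf, a secreted factor of some GABA interneurons and chosen here after its values were seen, had a log2 fold change of 0.31 in 3g males, 0.34 in 3g females and 0.32 over both sexes (edgeR unadjusted p = 5.51e-05, adjusted p = 0.364), and did not pass over all genes. Npas1, a transcription factor of pallidal and some interneuron lineages, also chosen after its values were seen, stood at 1.09 to 2.41 CPM in lysate RNA and 125 to 951 CPM in footprints over 13 animals.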
